A study of Mus musculus with 6 samples.

Results

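The genes described here are 10 regulators of the passage from the resting state through the G1 phase of the cell cycle: the D-type cyclins Ccnd1, Ccnd2 and Ccnd3, their kinases Cdk4 and Cdk6, the inhibitors Cdkn1b, Cdkn2c and Cdkn2d, the retinoblastoma gene Rb1 and the transcription factor gene Myc. They were chosen by name and read among 22180 genes on 6 whole-transcript expression arrays (Affymetrix) of mouse CD8+ T cells. All 10 were measured, each at a probe set annotated to exactly 1 gene symbol, and for Rb1, which had 2 such probe sets, at the one with the highest mean over all 6 arrays. Of these arrays 3 were labelled Dot1l knockout and 3 wild type, all from C57BL/6 mice that received no treatment. Knockout animals came from a cross of Dot1l flox/flox mice with CD4-Cre mice, in which the Cd4 promoter drives Cre recombinase in developing T cells, a design meant to make T cells lose Dot1l, the gene of a histone H3 methyltransferase. Fresh cells of spleen and peripheral lymph nodes were purified by a kit for mouse CD8+ T cells. The labels give neither the age of the mice, nor whether wild type mice carried a floxed allele or Cre, nor whether each array stands for a separate animal. A p-value here thus refers to the spread between arrays, which may be technical.

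In a T cell that meets antigen, Myc and the D-type cyclins are induced early, and D-type cyclins bind CDK4 or CDK6 to form the kinases that first phosphorylate the retinoblastoma protein. Phosphorylation releases E2F transcription factors from the retinoblastoma protein, and these switch on the genes of DNA replication. Resting T cells hold this step back with the CDK inhibitors: the protein of Cdkn1b binds cyclin and kinase together, and those of Cdkn2c and Cdkn2d belong to the INK4 family, which binds CDK4 and CDK6 and keeps D-type cyclins away from them.

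The promoters of the kinase pair are shown because the kinases gave unlike calls below and because Cdk4 is a known target of MYC, which binds the E-box CACGTG. The windows run from 250 bases before to 50 bases after the gene start in RefSeq (GRCm38.p6), both on the plus strand, for Cdk4 chr10:127063285-127063584 and for Cdk6 chr5:3343643-3343942. Capitals mark each E-box.
Cdk4: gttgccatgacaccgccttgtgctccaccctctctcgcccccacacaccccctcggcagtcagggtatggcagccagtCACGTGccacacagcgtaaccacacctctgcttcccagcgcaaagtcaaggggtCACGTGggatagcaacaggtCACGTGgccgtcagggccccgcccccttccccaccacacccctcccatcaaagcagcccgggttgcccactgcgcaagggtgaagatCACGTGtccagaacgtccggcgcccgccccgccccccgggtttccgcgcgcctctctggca
Cdk6: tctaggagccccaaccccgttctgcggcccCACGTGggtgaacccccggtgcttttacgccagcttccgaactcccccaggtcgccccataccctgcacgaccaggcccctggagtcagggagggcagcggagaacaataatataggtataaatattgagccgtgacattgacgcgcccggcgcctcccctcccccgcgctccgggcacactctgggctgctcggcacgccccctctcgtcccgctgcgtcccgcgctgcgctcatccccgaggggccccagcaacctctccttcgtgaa
The Cdk4 window held 4 E-boxes, which began 172, 118, 98 and 11 bases before the gene start, and the Cdk6 window held 1, at 220 bases. An E-box was present in 7.15% of the 32817 promoter windows of the same length, and 4 or more in 8 of them (0.0244%). Of the 10 genes 6 had promoter windows in the table, 8 windows in all, and 3 of these windows held an E-box, the other being a Cdkn2c window. The E2F consensus, searched on both strands as TTTCCCGC, TTTCGCGC, TTTGCCGC and TTTGGCGC, was in 0 of the 8 windows and in 2.26% of all windows. These matches describe letters in the sequence and do not show binding. Their link to the calls of Cdk4 and Cdk6 was not tested, and unlike calls do not show unlike changes.

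Levels are deposited log2 expression values, set between arrays by the authors with RMA, and a difference is the mean of knockout-labelled arrays minus the mean of wild type arrays (n = 3 each for all values). A gene passed at a Benjamini-Hochberg adjusted p under 0.05 over all 22180 genes in limma. The 95th percentile of 1394 olfactory and vomeronasal receptor genes, 3.83, served as a guide to background. Over genes, Pearson's r between arrays was 0.994 to 0.995 among knockout-labelled arrays, 0.989 to 0.993 among wild type arrays and 0.984 to 0.987 across the groups. The Dot1l probe set did not separate the groups, at 7.31, 7.26 and 7.33 in knockout-labelled arrays and 7.46, 6.96 and 7.18 in wild type arrays (difference 0.10, SE 0.13, adjusted p = 0.765). Which exon was removed is not stated in the labels, so a probe set that lies elsewhere in the gene cannot check them. T cell identity genes were far above background in both groups: means in knockout-labelled arrays were 11.74 for Cd3e, 10.95 for Cd8a and 11.21 for Cd8b1, against 11.83, 11.12 and 11.26 in wild type arrays. Cd4 lay at the background guide, at 3.86 in knockout-labelled arrays and 3.79 in wild type arrays.

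Of the 10 genes 1 rose in knockout-labelled arrays, 0 fell and 9 did not pass. The gene that rose was Cdk6, 1.51-fold. Over all genes 5.5% passed, 4.3% as higher and 1.2% as lower, or 954 and 266 genes, a split that became 625 and 470 after another quantile normalization over all probe sets. At an unadjusted p under 0.05, limma gave 3 of the 10 as higher (Cdk6, Ccnd2 and Rb1) and 0 as lower, beside 11.2% of all genes as higher and 6.83% as lower at that threshold. For the same 3 genes the arrays of the groups did not overlap, with every knockout-labelled value above every wild type value. Over all genes the groups did not overlap in 23.5%, with knockout above in 13.7% and below in 9.78%. The median difference of the 10 genes was 0.12, beside -0.01 over all genes tested, and it was 0.03 after quantile normalization and 0.07 after median centring, with a median over all genes of -0.06 after each. The 11090 genes above the 50th percentile of level include all 10. In a limma fit of those 11090 genes their median difference was 0.04, and 1171 passed as higher and 366 as lower. In bulk RNA, fewer cells with a transcript and less of it per cell cannot be told apart.

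**Figure D1:**
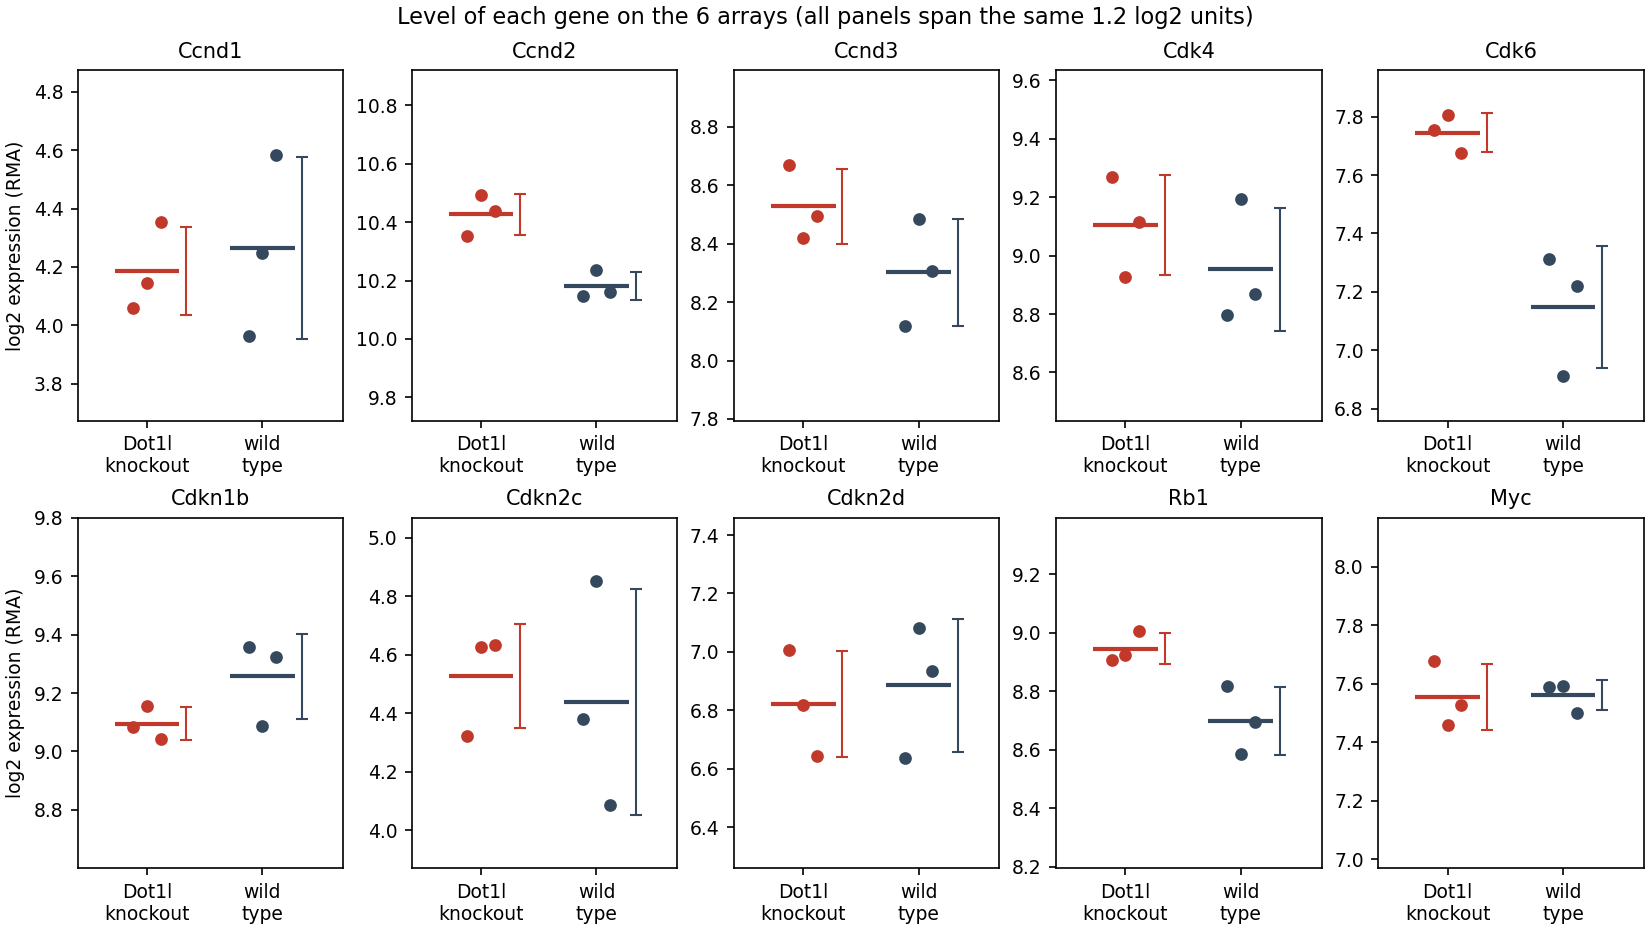
Log2 expression (RMA) of the 10 genes on each array, knockout-labelled left and wild type right in each panel. Points are arrays, horizontal lines are group means and bars to the right are SD (n = 3), and every panel spans 1.2 log2 units. The groups do not overlap for Ccnd2, Cdk6 and Rb1, and they overlap for the other genes.

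Cdk6, the D-cyclin-dependent kinase that is abundant in blood cells, was the member with a called difference. It read 7.75, 7.81 and 7.68 in knockout-labelled arrays, against 7.31, 6.91 and 7.22 in wild type arrays. The knockout-labelled values lay close together, all above the highest wild type array. The means were 7.75 ± 0.07 in knockout-labelled arrays and 7.15 ± 0.21 in wild type arrays (SD), a difference of 0.60 (SE 0.12, 95% interval 0.32 to 0.88, limma adjusted p = 0.0231). By p-value Cdk6 stood at rank 851 of the 22180 genes. Its difference kept its sign and stayed between 0.48 and 0.68 when single arrays were left out, but the call held in 2 of those 6 fits: it ended without wild type replicate 3 (adjusted p = 0.0575) and without knockout replicate 1, 2 or 3 (0.0843, 0.0979 and 0.0715). It also ended when all 41345 probe sets were tested together (0.0593) and with replicate number as a block in the fit (0.0506).

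**Figure D2:**
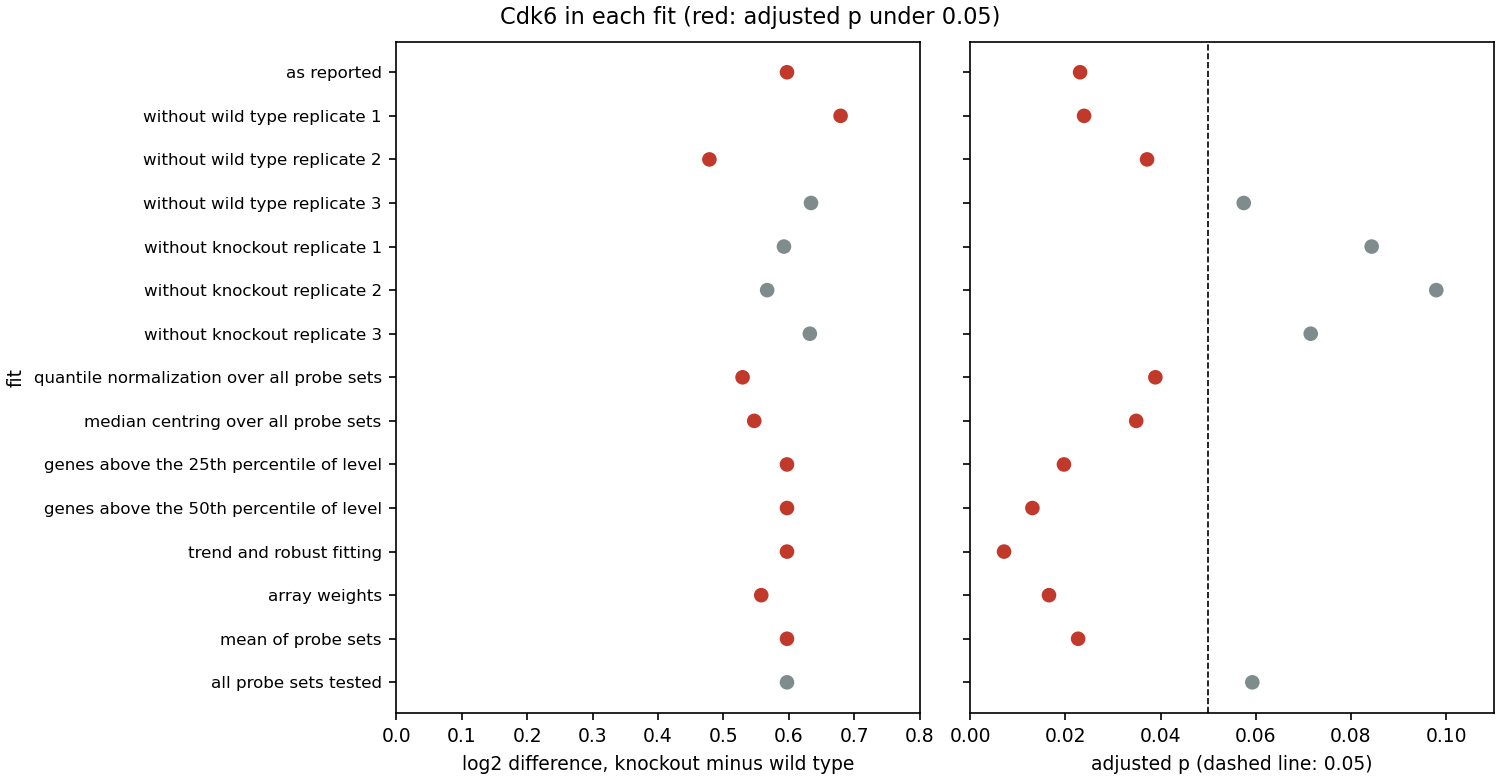
Cdk6 in each limma fit except the replicate block. The log2 difference of knockout-labelled minus wild type arrays is at left and its adjusted p at right (dashed line at 0.05). Red points passed and grey points did not; differences lie between 0.48 and 0.68, while adjusted p lies between 0.00709 and 0.0979.

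Its paralogue Cdk4, the other kinase of D-type cyclins, read 9.27, 8.93 and 9.11 in knockout-labelled arrays and 8.80, 9.19 and 8.87 in wild type arrays. The groups overlapped, with a wild type array second highest of all 6. The difference was 0.15 (SE 0.14, 95% interval -0.16 to 0.46, adjusted p = 0.638). Whether the paralogues differed in their response was tested on the log2 ratio within each array, which does not move with the scaling of an array and whose own level has no meaning, since the genes have different probes. Cdk4 over Cdk6 gave 1.52, 1.12 and 1.44 in knockout-labelled arrays and 1.49, 2.28 and 1.65 in wild type arrays, a difference of -0.45 with overlapping groups. It was -0.21 without wild type replicate 2 and between -0.61 and -0.33 without any other single array. An exact two-sided permutation test gave p = 0.2 (0.5 after Benjamini-Hochberg adjustment over the 5 paralogue pairs tested), and 3 against 3 arrays cannot give a p below 0.1. These arrays therefore do not settle whether Cdk6 and Cdk4 changed by different amounts, and that Cdk6 passed and Cdk4 did not does not show it.

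Among the D-type cyclins, the regulatory subunits of these kinases, 0 of 3 passed. Ccnd2, which is induced in T cells by cytokines and antigen, read 10.35, 10.49 and 10.44 in knockout-labelled arrays and 10.15, 10.24 and 10.16 in wild type arrays. The groups did not overlap, and both were narrow, with SD of 0.07 in knockout-labelled arrays and 0.05 in wild type arrays. The difference of 0.25 (SE 0.10, 95% interval 0.03 to 0.47) had an adjusted p of 0.219, and it passed in 1 of 15 alternative fits, the one with trend and robust fitting (0.0441). In the fit reported here, without trend or robust fitting, the smallest difference that passed over all genes was 0.38 in size. The Ccnd2 difference lay below every one called in that fit.

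Ccnd3, the D-type cyclin that developing lymphocytes depend on, read 8.67, 8.42 and 8.50 in knockout-labelled arrays and 8.12, 8.48 and 8.31 in wild type arrays. A single wild type array, replicate 2, reached into the range of the knockout-labelled group. The difference of 0.23 (SE 0.13, 95% interval -0.06 to 0.51) did not pass (adjusted p = 0.403). Ccnd1, the D-type cyclin of many non-lymphoid tissues, read close above the background guide of 3.83, at 4.06, 4.15 and 4.35 in knockout-labelled arrays and 3.96, 4.25 and 4.58 in wild type arrays. The wild type arrays enclosed the knockout-labelled ones, and the difference was -0.08 (SE 0.16, 95% interval -0.44 to 0.28, adjusted p = 0.854).

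The ratios between cyclins did not separate the groups either. Ccnd1 over Ccnd2 differed by -0.32 and Ccnd1 over Ccnd3 by -0.30 (exact permutation p = 0.2 and 0.3, both 0.5 after adjustment over the 5 pairs). Without wild type replicate 3 these differences were -0.15 each, and Ccnd1 over Ccnd3 was -0.17 without knockout replicate 1. Ccnd2 over Ccnd3 averaged 1.90 ± 0.20 in knockout-labelled arrays and 1.88 ± 0.14 in wild type arrays, a difference of 0.02 (exact permutation p = 0.9, 0.9 after adjustment). That difference was smaller than the SD within either group and lay between -0.067 and 0.13 when single arrays were left out.

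**Figure D3:**
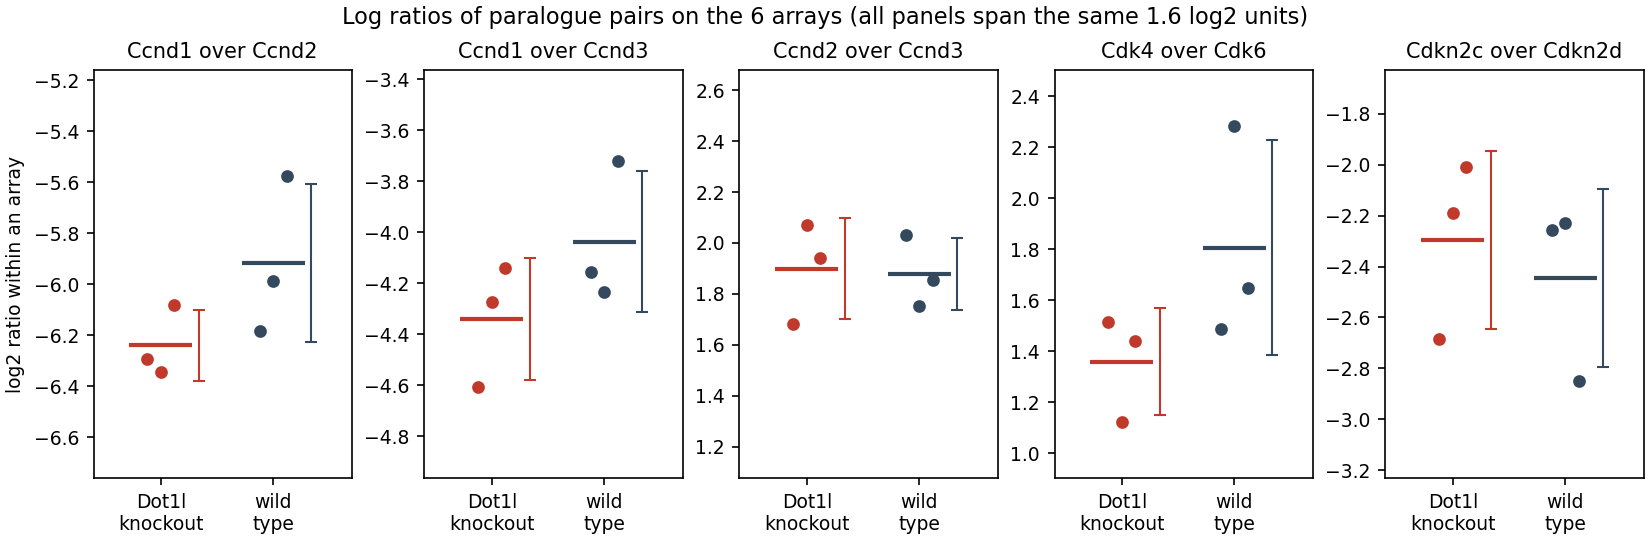
Log2 ratio of 2 paralogues within each array for 5 pairs, knockout-labelled left and wild type right. Points are arrays, lines are means and bars are SD (n = 3), and every panel spans 1.6 log2 units; the groups overlap in all 5 panels, also for Cdk4 over Cdk6, where the mean is 1.36 in knockout-labelled arrays and 1.81 in wild type arrays.

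None of the 3 CDK inhibitors passed, and none had an unadjusted p under 0.05 in limma. Cdkn1b, whose protein restrains T cell division, read 9.09, 9.16 and 9.04 in knockout-labelled arrays and 9.36, 9.09 and 9.32 in wild type arrays. Wild type replicate 2 lay within the knockout-labelled range, and the other two wild type arrays lay above it. The difference was -0.16 (SE 0.11, 95% interval -0.41 to 0.09, adjusted p = 0.504). Cdkn2d, an INK4 inhibitor, read 7.01, 6.82 and 6.64 in knockout-labelled arrays and 6.64, 7.08 and 6.94 in wild type arrays, interleaved across the groups (-0.06, SE 0.14, 95% interval -0.39 to 0.26, adjusted p = 0.874).

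Cdkn2c, the INK4 inhibitor with a role in limiting lymphocyte division, also read close to background, at 4.32, 4.63 and 4.63 in knockout-labelled arrays and 4.38, 4.85 and 4.09 in wild type arrays. The knockout-labelled arrays lay within the range of the wild type ones, with SD of 0.18 in knockout-labelled arrays and 0.39 in wild type arrays. The difference was 0.09 (SE 0.19, 95% interval -0.33 to 0.51, adjusted p = 0.862). Cdkn2c over Cdkn2d differed by 0.15 between the groups (exact permutation p = 0.5, 0.625 over the 5 pairs), from -0.052 without wild type replicate 3 to 0.34 without knockout replicate 1.

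Rb1, the substrate of the D-cyclin kinases and repressor of E2F factors, read 8.91, 8.92 and 9.01 in knockout-labelled arrays and 8.82, 8.58 and 8.70 in wild type arrays. Every knockout-labelled array was higher than every wild type array. The difference of 0.25 (SE 0.10, 95% interval 0.01 to 0.48) did not pass (adjusted p = 0.251). The other Rb1 probe set lay below the background guide, at 2.98 ± 0.12 in knockout-labelled arrays and 2.74 ± 0.20 in wild type arrays, with a difference of 0.23 (adjusted p = 0.437 over all probe sets). A further 2 probe sets annotated to Rb1 together with another gene were not used.

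Myc had the smallest difference of the 10. It read 7.68, 7.46 and 7.53 in knockout-labelled arrays and 7.59, 7.59 and 7.50 in wild type arrays, with the wild type arrays inside the knockout-labelled range. The means were 7.56 ± 0.11 in knockout-labelled arrays and 7.56 ± 0.05 in wild type arrays, a difference of -0.01 (SE 0.10, adjusted p = 0.988). The 95% interval ran from -0.24 to 0.23, so that a change as large as that of Cdk6 lay outside it in either direction.

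**Figure D4:**
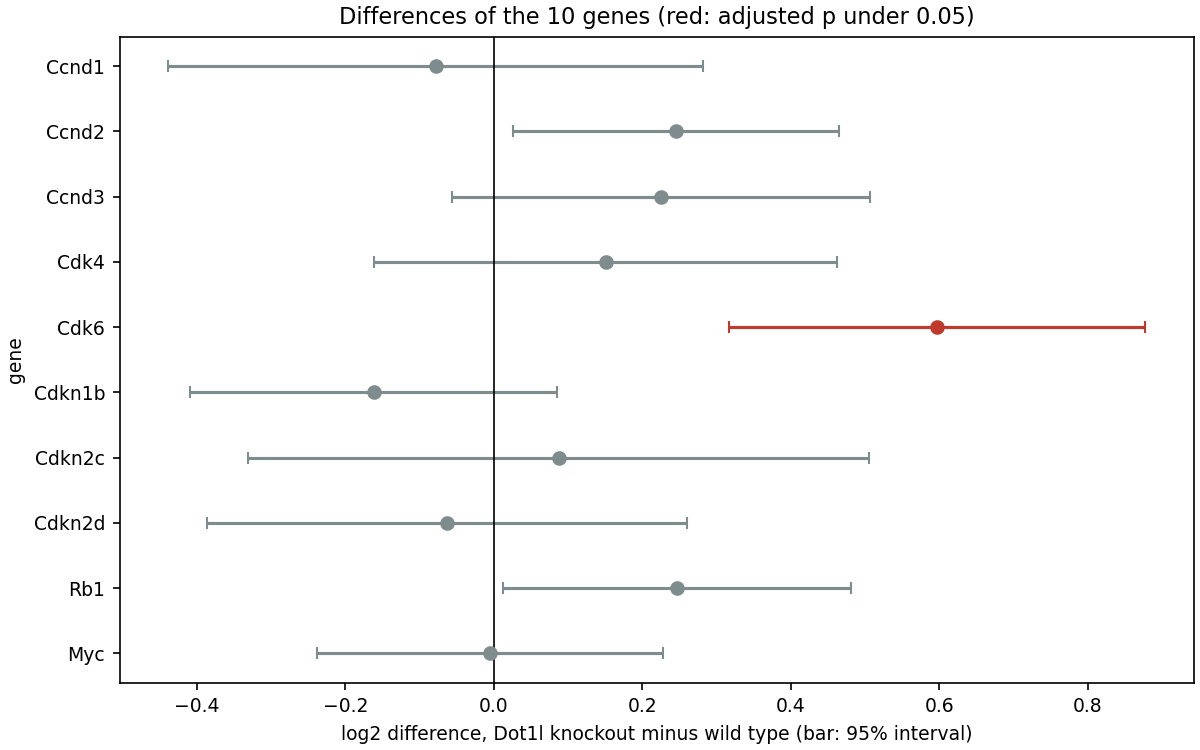
Log2 difference of each gene, knockout-labelled minus wild type arrays, with its 95% interval from the limma fit. Cdk6 (red, adjusted p = 0.0231) passed; the intervals of Ccnd2 and Rb1 lie above 0 without passing after adjustment, and those of the other 7 genes include 0.

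The wider G1 and Myc machinery was read from a list of 38 further genes, of which 37 were measured. In this list 3 rose, 0 fell and 34 did not pass, beside 4.3% of all genes that rose and 1.2% that fell. At an unadjusted p under 0.05 in limma 8 were higher and 0 lower, beside 11.2% and 6.83% of all genes. The median difference was 0.11 (0.03 after quantile normalization). Among 13 other G1 cyclins, kinases and inhibitors, 2 rose. Ccnh, the cyclin of the CDK-activating kinase, which phosphorylates CDK4 and CDK6, read 7.59, 7.67 and 7.71 in knockout-labelled arrays and 7.10, 7.24 and 6.98 in wild type arrays (difference 0.55, SE 0.11, adjusted p = 0.0166). The groups were apart, but the call ended without wild type replicate 3 (adjusted p = 0.0647), as it did without knockout replicate 2 (0.0727) or 3 (0.0831). The kinase gene Cdk7 and the assembly factor gene Mnat1, which encode the partners of cyclin H, differed by 0.09 and -0.06 (adjusted p = 0.771 and 0.830).

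Cdkn1a, the inhibitor related to Cdkn1b and a target of p53, read 7.04, 6.92 and 6.92 in knockout-labelled arrays and 6.29, 5.98 and 6.55 in wild type arrays (difference 0.69, SE 0.14, adjusted p = 0.0239). Its call ended without wild type replicate 1 (adjusted p = 0.0576) and without knockout replicate 1, 2 or 3 (0.0973, 0.0746 and 0.0831), and with all probe sets tested (0.0670). The later G1 partners Cdk2 and Ccne1, which act after the D-type cyclins, differed by -0.01 and 0.24 (adjusted p = 0.973 and 0.330).

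Of 12 pocket protein and E2F genes 1 rose and 0 fell, beside 4.3% and 1.2% of all genes. Tfdp1, the dimerisation partner of E2F factors, read 7.98, 8.04 and 8.25 in knockout-labelled arrays and 7.62, 7.65 and 7.57 in wild type arrays (difference 0.48, SE 0.11, adjusted p = 0.0336). With 1 array left out it passed only without wild type replicate 2 (0.0497; 0.0601 to 0.146 in the other such fits), and it did not pass after quantile normalization (0.0544), after median centring (0.0591) or with all probe sets tested (0.0670). The pocket protein gene Rbl1 and the atypical repressor gene E2f8 had differences of 0.45 and 0.41 with groups that did not overlap, at adjusted p of 0.0611 and 0.0745. The third pocket protein gene, Rbl2, differed by 0.15 (adjusted p = 0.493).

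Of 12 Myc network genes 0 passed, with 2 higher and 0 lower at an unadjusted p under 0.05 in limma (11.2% and 6.83% of all genes). Mxd1, an antagonist that competes with MYC for their shared partner MAX, had the smallest p of them. It read 9.59, 9.59 and 9.58 in knockout-labelled arrays and 9.33, 9.16 and 9.42 in wild type arrays (difference 0.28, SE 0.11, adjusted p = 0.187). Max itself differed by 0.11 (adjusted p = 0.652). Among 9 measured growth genes known as MYC targets, 1 rose and 0 fell (4.3% and 1.2% of all genes). It was the lactate dehydrogenase gene Ldha (difference 0.46, limma adjusted p = 0.0295), chosen here after its value was seen. It passed only without wild type replicate 2 when single arrays were left out (0.0309; 0.0751 to 0.116 otherwise), and it did not pass after quantile normalization (0.124), after median centring (0.0576) or with all probe sets tested (0.0565). The median of these 9 genes was -0.02, close to the -0.01 over all genes.

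Downstream, 4 of 16 measured S phase and mitosis genes rose and 0 fell, beside 4.3% and 1.2% of all genes. At an unadjusted p under 0.05 in limma 9 of the 16 were higher and 0 lower (11.2% and 6.83% of all genes). The median of the 16 was 0.29 (0.20 after quantile normalization). The 4 were Ccna2, Rrm2, Top2a and Mcm6, named after their values were seen. With single arrays left out, Ccna2 and Rrm2 passed in all 6 fits, Top2a in 4 (not without knockout replicate 2, adjusted p = 0.0648, or 3, 0.0809) and Mcm6 in 1 (without wild type replicate 2, adjusted p = 0.0427). Mcm6 did not pass after quantile normalization (0.0900), after median centring (0.0908) or with all probe sets tested (0.0825). Averaging the probe sets of Rrm2 ended its call (0.0818). Upstream, beside shares of 4.3% and 1.2% over all genes, 2 of 10 regulators rose and 1 fell. These, also named after their values were seen, were Il2rb, a receptor chain for interleukins 2 and 15 (0.55, adjusted p = 0.0122), Tob1, an antiproliferative gene of resting T cells (0.48, adjusted p = 0.0277), and the lower Stat5b, a transcription factor that carries cytokine signals to Ccnd2 (-0.67, adjusted p = 0.00572). The call of Stat5b held in all 15 alternative fits. That of Il2rb ended without knockout replicate 1, 2 or 3 (adjusted p = 0.0561, 0.0552 and 0.0535), and with 1 array left out that of Tob1 held only without wild type replicate 1 (0.0388); it ended with all probe sets tested (0.0563). Foxo1, which drives Cdkn1b and Rbl2 in resting lymphocytes, differed by 0.26 (adjusted p = 0.189). Il7r differed by 0.32 and Stat5a by -0.37 (limma adjusted p = 0.160 and 0.139). Of the 10 regulators 4 were higher and 2 lower at an unadjusted p under 0.05 in limma (11.2% and 6.83% of all genes). The groups did not overlap for 8 of the 10, beside 23.5% of all genes.

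**Figure D5:**
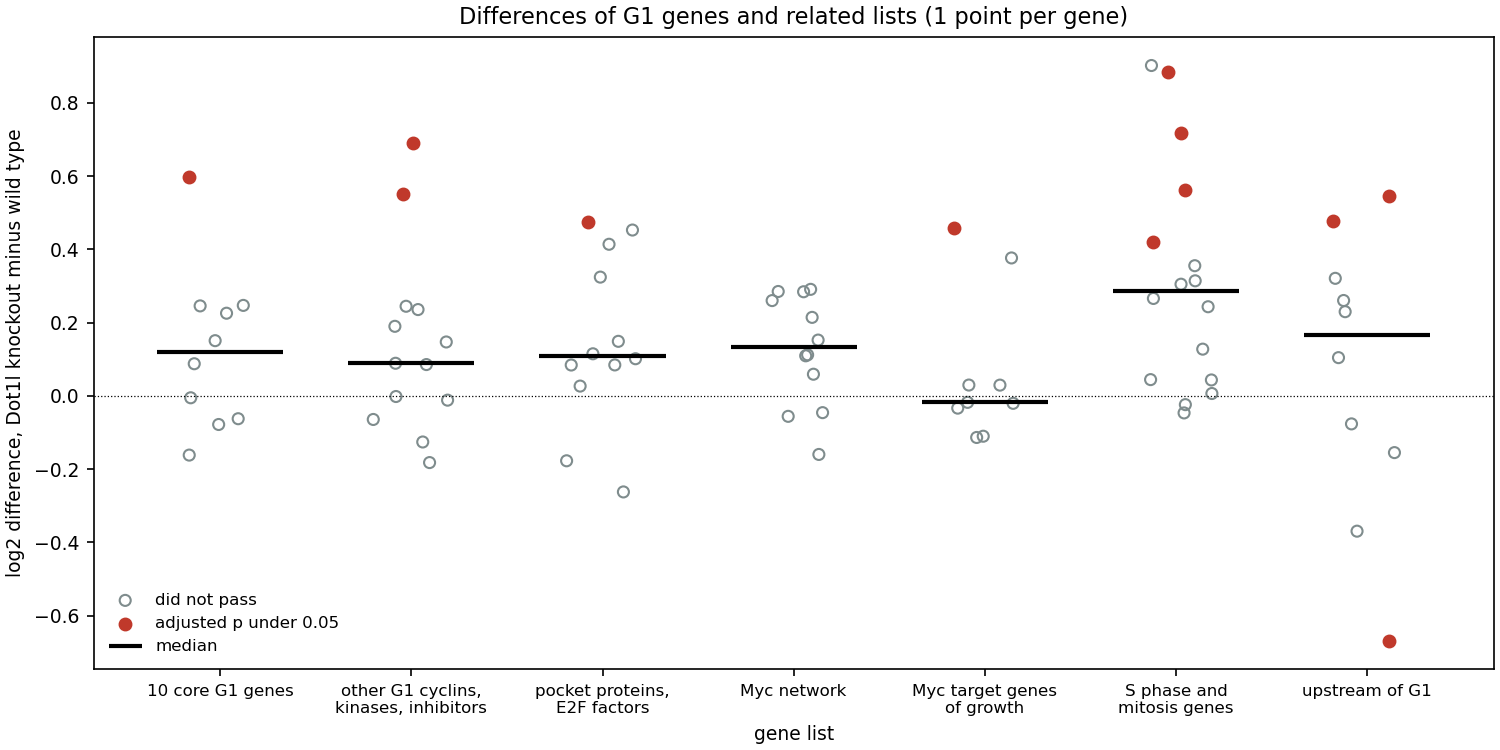
Log2 difference, knockout-labelled minus wild type arrays, of each measured gene in 7 lists, 1 point per gene, with the median of each list as a line. Filled points passed at an adjusted p under 0.05; medians run from -0.02 for Myc target genes of growth to 0.29 for S phase and mitosis genes, and that of the other G1 cyclins, kinases and inhibitors, 0.09, was -0.06 after quantile normalization.

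Markers of other cells and of stimulation moved in the same arrays. Their summed levels are given on the linear scale, and their counts stand beside shares of 4.3% higher and 1.2% lower over all genes. Of 7 measured B cell markers 3 rose (Cd22, Ms4a1 and Cd79a), 1 fell (Ighm) and Pax5 was below the background guide, with sums of 1543 to 1696 in knockout-labelled arrays and 2095 to 2402 in wild type arrays. Most of that sum was Ighm, and the other 6 markers summed to 254 to 307 in knockout-labelled arrays and 171 to 213 in wild type arrays. Of 4 dendritic cell markers Itgax rose, the other 3 were below the guide, and sums were 71.3 to 83.9 in knockout-labelled arrays and 51.3 to 53.8 in wild type arrays. Of 3 NK cell markers Nkg7, which CD8+ T cells also express, rose, with sums of 1874 to 2037 in knockout-labelled arrays and 1165 to 1469 in wild type arrays. Nkg7 made up most of it, with a mean log2 level of 10.90 in knockout-labelled arrays, against 5.37 for Ncr1 and 4.15 for Klrb1c. Ncr1 and Klrb1c differed by 0.44 and 0.90 but did not pass (limma adjusted p = 0.0719 and 0.151). Of 7 myeloid markers Itgam rose and 4 were below the guide (103 to 112 in knockout-labelled, 96.6 to 122 in wild type arrays). The other 6 myeloid markers had negative differences and did not pass. The largest of these were -0.60 for Adgre1, below the guide, and -0.40 for Csf1r, above it (limma adjusted p = 0.115 and 0.230). The 5 CD4 and regulatory T cell markers summed to 245 to 269 in knockout-labelled arrays, against 309 to 391 in wild type arrays. The marker that fell, Cd40lg, added little to these sums, with a mean log2 level of 3.05 (knockout-labelled, below the guide) against 3.93 (wild type). Ctla4 made up most of them, with a mean of 7.48 (knockout-labelled) against 8.03 (wild type). Its groups did not overlap, but it did not pass (difference -0.54, limma adjusted p = 0.0752). Of 8 genes of stimulation or dissociation 4 rose (Fosb, Nr4a1, Egr1 and Fos). The other 4 did not pass, with differences of 0.03 for Jun, 0.06 for Junb, 0.06 for Hspa1a and 0.17 for Ier2. All 8 summed to 5194 to 5635 in knockout-labelled arrays and 4127 to 4582 in wild type arrays. The part of these shifts in the values of Cdk6 and the other genes was not tested.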

How the data were processed

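The deposited table holds log2 expression values for 41345 probe sets on 6 arrays, which, per the submitters' processing notes, the authors made with RMA (R 3.1.1). This method corrects background, quantile-normalizes arrays and summarises probes, and it compresses differences of dim probe sets. Its settings and the build are not stated in these notes. Array medians lay between 3.69 and 3.78. Arrays have no count depth, and their number limits the precision.

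The platform annotation gave exactly 1 symbol to 23521 probe sets, several to 1814 and none to 16010. Keeping for each gene the probe set with the highest mean left 22180 genes, tested in R 4.3.3 by lmFit and eBayes of limma 3.58.1 with no covariate and adjusted by Benjamini-Hochberg. The steps were tested on simulated data whose set differences were larger than that of any member. That test thus does not show how often differences of the sizes reported here would pass. The members and gene lists were chosen with earlier results of these data known. Every member, and of the G1 and Myc network genes those that passed and the 6 with the smallest p, are named; other genes named were chosen for their role or with their values in view. Alternatives tried were quantile normalization, median centring, a replicate block, each array left out, array weights, trend with robust fitting, genes above the 25th or the 50th percentile of level, averaged probe sets and all probe sets. List members without a probe set of their own, including all 3 erythroid markers, were not analysed here.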

Additional observations from a re-analysis of the deposited data

How the results depend on the processing

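Among the 10 genes, Ccnd3, Cdk4, Cdkn1b and Rb1 kept their direction and stayed short of the threshold in all 15 alternatives. With arrays left out in turn, the Cdk6 difference ranged from 0.48 to 0.68 and the number of the 10 genes that rose from 0 to 1. In the same fits Ccnd1 ranged from -0.23 to 0.081 and Cdkn2c from -0.089 to 0.29. Cdkn2d ranged from -0.19 to 0.036 and Myc from -0.068 to 0.043, so the sign of these 4 changed between fits. Rises in the wider G1 and Myc list ranged from 0 to 3, and over all genes 494 to 929 rose and 121 to 378 fell; fewer arrays enter these fits. Whether replicate numbers pair the arrays is not given in the labels. Same-numbered arrays deviated from their group means with correlations of -0.07, -0.16 and -0.07, and no array correlated best with its own number. Deviations from a mean of 3 arrays depend on each other, so these values cannot decide whether same-numbered arrays share a day or batch. With the replicate block the Cdk6 difference was 0.60 at an adjusted p of 0.0506, and 0 of the 10 genes passed; Tfdp1 (0.0878), Tob1 (0.0866), Mcm6 (0.117) and Ldha (0.0841) also did not pass. With all probe sets tested Cdk6 was again 0.60 (adjusted p = 0.0593), 0 of the 10 passed, and 1 gene of the wider list rose. Quantile normalization turned Cdkn2c to -0.055 and gave 625 rises and 470 falls over all genes. The filter at the 50th percentile gave 5 rises in the wider list. Trend with robust fitting passed Ccnd2 (0.25, adjusted p = 0.0441), so 2 of the 10 genes rose, and array weights gave 0.00123 for Myc. The cause of these changes was not tested. In the 7 alternatives run for them, the 5 paralogue ratios moved by less than the SD between arrays pooled over both groups, though Cdk4 over Cdk6 and Ccnd1 over Ccnd2 moved by more than the knockout SD alone when 1 wild type array was left out. Ccnd1 and Cdkn2c lay nearest to background, where RMA compresses differences.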
